A study of Mus musculus with 6 samples.

Results

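Peroxisomes are small organelles that break down fatty acids too long or too branched for mitochondria, make bile acid and ether lipid intermediates, and destroy the hydrogen peroxide that their oxidases release. The 32 genes described here are 13 peroxins (Pex genes), whose products build the organelle, and 19 genes for the oxidation enzymes, their transporters and catalase. They were chosen by gene symbol for their place in the pathway, with earlier results of these data known. All 32 were found among the 16123 genes of the expression table. The peroxins insert membrane proteins, import enzymes from the cytosol and divide the organelle. The enzymes shorten acyl chains by beta-oxidation and, for branched chains, by alpha-oxidation. Many of the oxidation genes, and Pex11a among the peroxins, are known targets of PPAR-alpha, a nuclear receptor activated by fatty acids in liver.

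The values are bulk RNA from liver, 3 libraries a group. The study describes 3 healthy adult mice in its exercise group and 3 sedentary mice. Exercised mice ran 22 km each on a treadmill over 6 weeks, with the liver taken 24 h after the last training, and sedentary mice had no treadmill training. All carried no stated genotype or further agent, and strain, sex and exact age were not stated in the labels. The study asked how moderate exercise changes liver metabolism.

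Library totals lay between 17941303 and 18371949 counts. TMM factors lay between 0.9716 and 0.977 in sedentary and between 1.025 and 1.031 in exercise libraries, so scaling moved with the group. The coefficient of variation between libraries of a group beyond counting error was 1.84%. The study names 3 mice a group, but the labels do not tie each library to a mouse, so the p-values measure only the spread between these libraries, which may be technical. The labels say liver, and summed hepatocyte markers (7 of 8 in the table, among them Alb and Ttr) lay at 73390 to 74850 FPKM in the sedentary libraries and at 73110 to 73810 in those of exercised mice, with none listed at 0. FPKM is the number of fragments scaled to transcript length and to the fragments of its library. Of the 7 hepatocyte markers tested, 3 were higher and 4 lower, so the level sum does not mean that each was unchanged. Markers of other cell types also differed between the groups, and no listed marker was at 0 in every library. Summed Kupffer cell and macrophage markers (6 of 8 lower, none higher) went from between 206 and 209 to between 174 and 178 FPKM, and cholangiocyte markers (1 of 2 tested lower) went from between 63.0 and 65.6 to between 32.7 and 34.6. Endothelial markers (3 of 8 higher, none lower) went from between 103 and 104 to between 113 and 123, and stellate cell and fibroblast markers (4 of 7 tested higher, 1 lower) from between 82.0 and 84.6 to between 103 and 104. Erythroid markers (4 of 5 tested lower) went from between 380.8 and 392.8 to between 334.9 and 351.6, and pancreatic acinar markers (2 of 2 tested lower) from between 16.6 and 17.1 to between 8.17 and 8.68. The part of these shifts in the results below was not tested, and in bulk RNA fewer cells of a type and less RNA per cell cannot be told apart.

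In livers of exercised mice, the oxidation genes rose more often than they fell, while the peroxins moved in both directions and over a narrower range. Of the 19 oxidation and transport genes, 9 rose and 2 fell, and the other 8 were not called. Their log2 fold changes ran from −0.34 to 0.66 around a median of 0.05. Of the 13 peroxins, 3 rose and 2 fell, and the other 8 were not called. Theirs ran from −0.23 to 0.29 around a median of −0.02. The test was edgeR's quasi-likelihood test on TMM-scaled counts, fitted to 10266 genes with a mean of at least 1 FPKM and adjusted over all of them by the Benjamini-Hochberg method, at a threshold of 0.05. All 32 members were among these genes.

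In the same fit 38.1% of all tested genes were called, 19.1% higher and 19% lower, with a median of −0.00062. The peroxins were therefore called at about the background share (38.5%), and the oxidation genes at 57.9%. Among the 15 enzymes without the 4 transport and activation genes, 7 rose and none fell. The 8 enzymes left did not pass. A stricter test of edgeR, against a change of 1.2-fold, called 6.36% of all genes (2.33% higher and 4.03% lower), and among the members it called Acaa1b, Ehhadh and Eci2 (3 of 19, all higher) but none of the 13 peroxins, of which none had an unadjusted p under 0.05 in that test either.

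By FPKM the 3 exercise libraries did not overlap the 3 sedentary ones for 7 of 13 peroxins (6 higher, 1 lower) and for 14 of 19 oxidation genes (13 higher, 1 lower), beside 51.0% of all genes (36.6% higher and 14.3% lower). DESeq2 called 2 peroxins higher and 2 lower and 9 oxidation genes higher and 1 lower, beside 24.5% of all genes (12.4% higher).

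The balance of directions moved with the scaling between libraries. TMM, which corrects for a few abundant genes taking up reads, set exercise values lower than the deposited FPKM did, by 0.07 to 0.10 on the log2 scale over the 32 members. Without TMM the median of all tested genes was 0.08, on the log2(TPM + 1) scale it was 0.10, and the log2 fold changes below are relative to the TMM scale, where it is close to 0. Without TMM 6 peroxins were higher and 1 lower, and 14 oxidation genes were higher and 1 lower, beside 34.4% and 11.7% of all genes. With limma on log2(FPKM + 1) the counts were 4 higher and 1 lower for peroxins and 12 higher and none lower for oxidation genes, beside 27.9% and 10.7%. With limma on log2(TPM + 1) 6 peroxins and 14 oxidation genes were called, and each of these was higher, beside 36.2% of all genes higher and 8.91% lower.

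**Figure D1:**
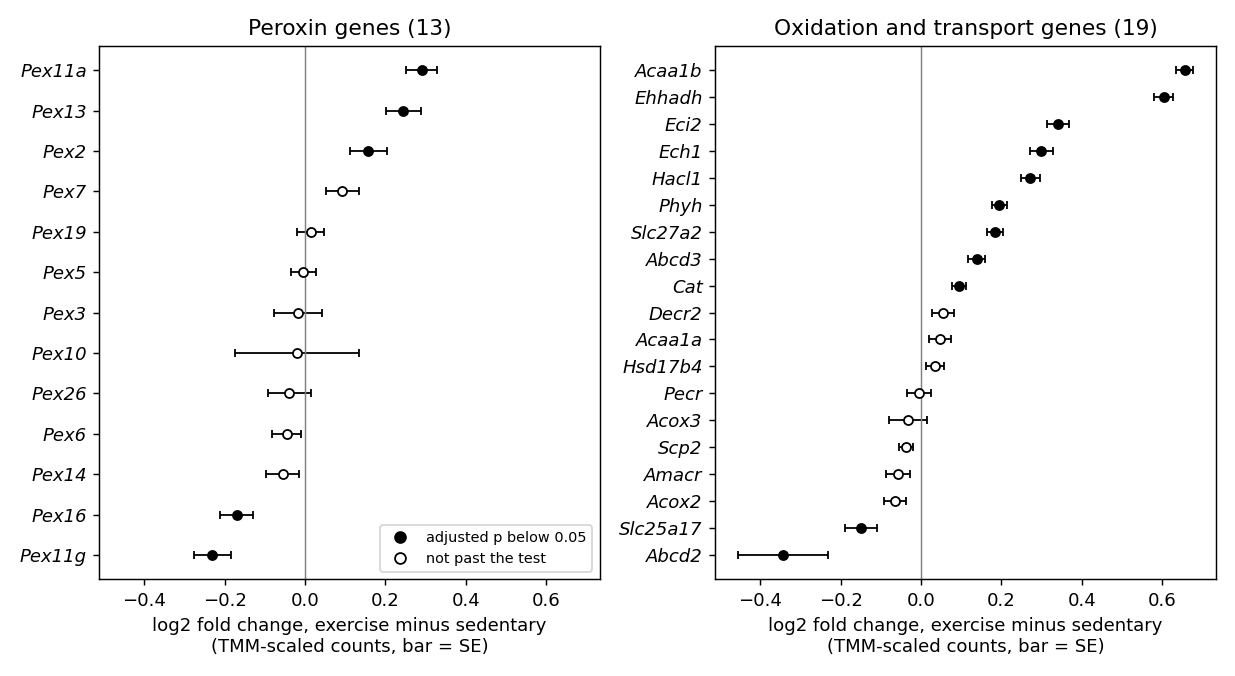
Log2 fold change of each of the 32 genes, exercise minus sedentary, from TMM-scaled counts, with its standard error, peroxins on the left and oxidation and transport genes on the right. Filled points passed the threshold, 5 of 13 peroxins and 11 of 19 oxidation genes. Acaa1b at 0.66 and Ehhadh at 0.60 stand to the right of all others, and Abcd2 at −0.34 has the lowest value.

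The core of peroxisomal beta-oxidation is a cycle of an oxidase, a bifunctional enzyme and a thiolase. Acaa1b encodes a thiolase, which cuts off acetyl-CoA at the end of each cycle (gene ID 235674, chromosome 9, 119148043 to 119157093 in GRCm38.p6). Acaa1b was at 463, 463 and 465 FPKM in the sedentary and 774, 759 and 771 FPKM in the exercise libraries. The groups were far apart and each was tight. Its log2 fold change was 0.66 (SE 0.02, edgeR adjusted p = 8.91e-31), the largest of the 32 genes.

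Ehhadh encodes the L-bifunctional enzyme, which hydrates and then dehydrogenates the acyl chain (gene ID 74147, chromosome 16, 21761285 to 21787834). Ehhadh was at 95.0, 94.9 and 94.8 FPKM in the sedentary and 155, 152 and 149 FPKM in the exercise libraries. Again all exercise libraries lay above all sedentary ones. The log2 fold change of Ehhadh was 0.60 (SE 0.02, edgeR adjusted p = 1.97e-26).

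The other core enzymes did not pass the test. Hsd17b4, the D-bifunctional enzyme that handles branched chains and bile acid intermediates, had a log2 fold change of 0.04 (SE 0.02, edgeR adjusted p = 0.21). Scp2, which encodes a thiolase and the sterol carrier protein 2, was the most abundant of the 32 genes at 1725 ± 31.4 and 1772 ± 14.3 FPKM (SD, n = 3), with a log2 fold change of −0.04 (SE 0.02, edgeR adjusted p = 0.0971). The branched-chain oxidases Acox2 (log2 fold change −0.06, adjusted p = 0.0542) and Acox3 (−0.03, adjusted p = 0.623) did not pass either. The signs of the last 3 values turned under other scalings. Scp2 was called higher without TMM (log2 fold change 0.04, adjusted p = 0.039) and on the log2(TPM + 1) scale (0.07, adjusted p = 0.0132), and called lower among genes of at least 5 FPKM (−0.04, adjusted p = 0.044) and without sedentary replicate 1 (−0.05, adjusted p = 0.0292). Acox2 was called lower among genes of at least 5 FPKM (−0.07, adjusted p = 0.0264). Hsd17b4 was called higher without TMM (0.11, adjusted p = 3.81e-05), in the limma fits and with library totals that leave out the 20 most abundant genes.

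Acaa1a, the near-identical copy of Acaa1b, lies 184 kb away on chromosome 9 (gene ID 113868, 119341028 to 119350296). Acaa1a was at 128, 124 and 125 FPKM in the sedentary and 137, 136 and 136 FPKM in the exercise libraries. Its groups did not overlap on the FPKM scale, but by TMM-scaled counts its log2 fold change was 0.05 (SE 0.03, adjusted p = 0.17), and it was called higher without TMM (0.12, adjusted p = 0.000147) and with limma on log2(FPKM + 1) (0.12, adjusted p = 0.00408). The longest open reading frames of the pair were identical at 1231 of 1275 bases (96.5%), and counts of both were not whole in at least 1 library, so how reads were split between them is uncertain. Within each library, which needs no scaling between libraries, Acaa1b was 3.62, 3.75 and 3.72 times Acaa1a in the sedentary and 5.65, 5.57 and 5.67 times in the exercise libraries. With the reads of the pair summed to 1 gene, the sum rose 1.45-fold (log2 fold change 0.54, SE 0.02, edgeR adjusted p = 8.19e-28), an alternative added after the data were seen. The annotation also places 224 bases of Acaa1b exon opposite exon of Dlec1, which had a mean of only 7.67 and 8 counts. It places 290 bases of Acaa1a exon opposite exon of Myd88, which was at 10.4 ± 0.411 and 11.3 ± 0.575 FPKM (SD, n = 3) with a log2 fold change of 0.05 (edgeR adjusted p = 0.583).

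Because one copy passed the test and the other did not, the 250 bases before their assigned start sites are shown with those of Ehhadh (RefSeq, GRCm38.p6, read on the gene's strand). Capitals mark CCAAT and GGGCGG, elements common in promoters, and AGGTCA, the half-site of nuclear receptors, each on either strand. The window of Acaa1a ends at the start site that the promoter table gives, but it lies wholly inside the span given for the gene above. By that span it is not upstream, so it may not be like the windows of Acaa1b and Ehhadh.
Acaa1b, chr9:119157094-119157343, minus strand: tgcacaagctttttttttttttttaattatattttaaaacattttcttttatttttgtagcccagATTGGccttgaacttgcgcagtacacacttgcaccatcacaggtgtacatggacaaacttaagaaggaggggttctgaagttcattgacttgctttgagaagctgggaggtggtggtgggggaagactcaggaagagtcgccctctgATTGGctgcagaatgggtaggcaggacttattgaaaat
Acaa1a, chr9:119341044-119341293, plus strand: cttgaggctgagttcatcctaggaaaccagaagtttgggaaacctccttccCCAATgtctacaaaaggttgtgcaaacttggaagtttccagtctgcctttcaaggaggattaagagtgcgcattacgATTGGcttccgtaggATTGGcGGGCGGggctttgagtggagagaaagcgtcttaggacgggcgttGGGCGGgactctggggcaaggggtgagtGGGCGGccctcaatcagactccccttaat
Ehhadh, chr16:21787835-21788084, minus strand: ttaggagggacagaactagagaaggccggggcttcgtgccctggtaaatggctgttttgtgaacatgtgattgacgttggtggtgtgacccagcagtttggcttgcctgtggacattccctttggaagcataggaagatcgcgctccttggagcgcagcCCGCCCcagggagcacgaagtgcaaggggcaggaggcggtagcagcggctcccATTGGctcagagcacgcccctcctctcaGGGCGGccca

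The stretch upstream of Acaa1b held 2 CCAAT and no GGGCGG elements and had a GC content of 41.6%. The window of Acaa1a, inside the span of its gene, held 3 of each and had 53.6%. That of Ehhadh held 1 CCAAT and 2 GGGCGG elements with 60.4%. In an alignment 118 of 193 aligned bases of the Acaa1a and Acaa1b stretches were identical (61.1%), against 58.5% for the stretches of the more distant pair Pex11a and Pex11g. Upstream windows were found for 27 of the 32 genes. The element that PPAR-alpha binds, 2 direct copies of AGGTCA with 1 base between them, was in none of the 27 and in 0.0335% of all 32851 windows, and a looser form with any letter in the middle of AGGNCA was in none and in 0.338%. The single half-site AGGTCA was in 4 of the 27 (Cat, Scp2, Slc27a2 and Pex11g) and in 14.0% of all windows. CCAAT was in 12 of the 27 and in 33.8%, and GGGCGG in 19 and in 32.7%. A gene was counted if any of its windows matched, and some genes had several (Pex5 had 3). The shares are of single windows, so the counts and shares are not strictly alike. These matches describe letters in a short window only.

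Auxiliary enzymes, which prepare unsaturated chains for the cycle, had 2 of 4 members higher. Eci2 encodes an enoyl-CoA isomerase that moves double bonds (gene ID 23986, chromosome 13, 34977748 to 35027115). Eci2 was at 135, 131 and 137 FPKM in the sedentary and 175, 178 and 183 FPKM in the exercise libraries, with no overlap, and its log2 fold change was 0.34 (SE 0.03, edgeR adjusted p = 1.66e-14). Ech1, a dienoyl-CoA isomerase found in peroxisomes and mitochondria (gene ID 51798, chromosome 7, 28825338 to 28832239), was at 215, 216 and 214 FPKM in the sedentary and 291, 279 and 264 FPKM in the exercise libraries. The exercise libraries were more scattered than the sedentary ones but all higher (log2 fold change 0.30, SE 0.03, edgeR adjusted p = 1.99e-12). Decr2, a dienoyl-CoA reductase, had a log2 fold change of 0.05 (adjusted p = 0.113) and was called higher without TMM (0.13, adjusted p = 9.15e-05) and in the limma fits. Pecr, an enoyl-CoA reductase, had one of −0.0038 (adjusted p = 0.935), and was called higher without TMM (0.07, adjusted p = 0.0382) and on the log2(TPM + 1) scale (0.10, adjusted p = 0.0343).

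Alpha-oxidation removes 1 carbon from chains such as phytanic acid, whose methyl group blocks beta-oxidation. Both of its enzymes in the list rose. Phyh, the phytanoyl-CoA hydroxylase of the first step (gene ID 16922, chromosome 2, 4918996 to 4938743), was at 1354, 1369 and 1365 FPKM in the sedentary and 1630.1, 1661 and 1629 FPKM in the exercise libraries (log2 fold change 0.19, SE 0.02, edgeR adjusted p = 2.71e-12). Hacl1, the lyase of the second step, went from 108 ± 2.09 to 138 ± 1.01 FPKM (SD, n = 3), with a log2 fold change of 0.27 (SE 0.02, edgeR adjusted p = 5.92e-13). The annotation has exons of Gm49387 on the same strand over 1540 bases of Hacl1, and 108 bases of Btd on the opposite strand. Amacr, the racemase that turns branched chains into the form the oxidases accept, did not pass (means of 98.2 and 101 FPKM, log2 fold change −0.06, adjusted p = 0.119).

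Catalase, which breaks down hydrogen peroxide, rose with a smaller fold change than Phyh or Hacl1. Cat (gene ID 12359, chromosome 2, 103453904 to 103485153) was at 1301 ± 5.21 and 1464 ± 12.1 FPKM (SD, n = 3), with a log2 fold change of 0.10 (SE 0.02, edgeR adjusted p = 1.85e-05). It was called in all alternatives except the test against 1.2-fold.

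The genes for transport and activation were divided. Slc27a2, a very long chain acyl-CoA synthetase, rose from 535 ± 2.62 to 640.0 ± 18.5 FPKM (SD, n = 3), with a log2 fold change of 0.18 (SE 0.02, edgeR adjusted p = 1.47e-10). Abcd3, an ABC transporter that brings acyl chains and bile acid precursors into the organelle, rose from 163 ± 1.30 to 189.9 ± 3.49 FPKM (SD, n = 3), with a log2 fold change of 0.14 (SE 0.02, edgeR adjusted p = 7.82e-07). Slc25a17, a membrane carrier of CoA and other cofactors, went the other way.

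Slc25a17 (gene ID 20524, chromosome 15, 81318921 to 81360765) was at 42.45, 43.1 and 41.3 FPKM in the sedentary and 40.03, 41.2 and 39.2 FPKM in the exercise libraries. The groups were separate but close, and its log2 fold change was −0.15 (SE 0.04, edgeR adjusted p = 0.00253). The call ended without TMM (−0.07, adjusted p = 0.148) and with limma on log2(FPKM + 1) (−0.07, adjusted p = 0.0998).

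Abcd2, a relative of Abcd3 that is low in liver (gene ID 26874, chromosome 15, 91145871 to 91192007), was at 1.32, 1.4 and 1.2 FPKM in the sedentary and 1.02, 1.03 and 1.21 FPKM in the exercise libraries, so the groups overlapped. These values rest on 132, 138 and 119 counts and on 100.0, 100.0 and 119 counts. The log2 fold change of Abcd2 was −0.34 (SE 0.11, edgeR adjusted p = 0.0129). The call ended without sedentary replicate 2 (−0.29, adjusted p = 0.0707), without exercise replicate 1 (−0.29, adjusted p = 0.0637), without exercise replicate 2 (−0.30, adjusted p = 0.0568), with DESeq2 (−0.34, adjusted p = 0.0954) and with limma on log2(FPKM + 1) (−0.14, adjusted p = 0.128).

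**Figure D2:**
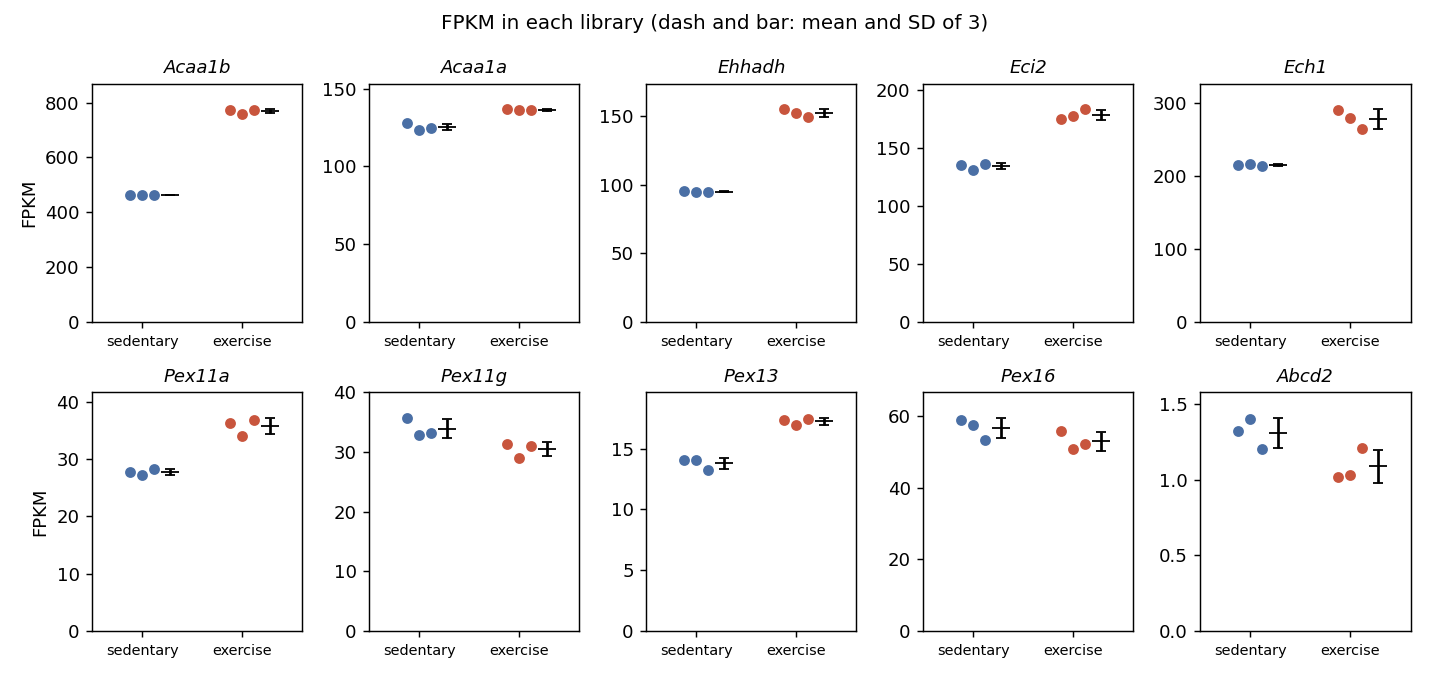
FPKM of 10 of the genes in each library, on axes that start at 0, with the 3 libraries of a group as points and their mean and SD beside them. The 3 exercise libraries lie above the 3 sedentary ones for Acaa1b, Acaa1a, Ehhadh, Eci2, Ech1, Pex11a and Pex13 and below them for Pex11g, and the groups overlap for Pex16 and Abcd2.

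Among the peroxins the pair that controls division of the organelle moved in opposite directions. Pex11a, the form known to respond to PPAR-alpha (gene ID 18631, chromosome 7, 79735957 to 79743131), was at 27.7, 27.2 and 28.4 FPKM in the sedentary and 36.4, 34.1 and 36.8 FPKM in the exercise libraries. All exercise values lay above all sedentary ones, with a log2 fold change of 0.29 (SE 0.04, edgeR adjusted p = 3.97e-08). Pex11g (gene ID 69129, chromosome 8, 3457105 to 3467648) was at 35.7, 32.9 and 33.1 FPKM in the sedentary and 31.3, 29.1 and 31.1 FPKM in the exercise libraries.

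The exercise values of Pex11g all lay below the sedentary ones, and its log2 fold change was −0.23 (SE 0.05, edgeR adjusted p = 4.78e-05). On the log2(TPM + 1) scale it did not pass (−0.12, limma adjusted p = 0.0531). Within each library Pex11a was 0.775, 0.827 and 0.856 times Pex11g in the sedentary and 1.16, 1.17 and 1.19 times in the exercise libraries, so Pex11g was the more abundant form in the former and Pex11a in the latter. The annotation has 1396 bases of Gm44775 exon opposite exon of Pex11g, and whether counting used strand was not stated in the labels. The 250 bases upstream of the pair are shown because its members moved apart, with capitals as above.
Pex11a, chr7:79743132-79743381, minus strand: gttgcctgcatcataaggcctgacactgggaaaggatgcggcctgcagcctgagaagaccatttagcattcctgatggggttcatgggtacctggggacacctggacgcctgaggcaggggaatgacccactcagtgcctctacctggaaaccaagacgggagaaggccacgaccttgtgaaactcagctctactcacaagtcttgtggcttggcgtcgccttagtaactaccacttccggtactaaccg
Pex11g, chr8:3467649-3467898, minus strand: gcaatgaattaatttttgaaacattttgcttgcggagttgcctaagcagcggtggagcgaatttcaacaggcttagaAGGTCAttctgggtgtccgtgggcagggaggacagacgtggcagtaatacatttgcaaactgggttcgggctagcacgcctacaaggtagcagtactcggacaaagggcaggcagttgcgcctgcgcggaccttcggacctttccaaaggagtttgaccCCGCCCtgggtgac

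The stretch upstream of Pex11a held none of the 3 elements, and that of Pex11g held 1 AGGTCA and 1 GGGCGG. The longest open reading frames of the pair were identical at 60.7% of 642 aligned bases, far less than those of the thiolase pair.

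The import machinery was mixed. Pex13, a membrane docking protein for the import receptors (gene ID 72129, chromosome 11, 23646843 to 23665883), was at 14.1, 14.0 and 13.3 FPKM in the sedentary and 17.4, 16.9 and 17.4 FPKM in the exercise libraries, without overlap (log2 fold change 0.24, SE 0.04, edgeR adjusted p = 9.52e-06). Its partner in docking, Pex14, did not pass (32.3 ± 1.2 and 32.7 ± 0.235 FPKM, log2 fold change −0.06, adjusted p = 0.299). Pex2, a RING protein of the ubiquitin ligase that acts on the receptors, rose from 21.6 ± 0.382 to 25.5 ± 0.748 FPKM (SD, n = 3), with a log2 fold change of 0.16 (SE 0.05, edgeR adjusted p = 0.0051), a call that DESeq2 did not make (adjusted p = 0.0502).

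Pex10, another RING protein of that ligase, was the lowest of the peroxins at 2.59 ± 0.139 and 2.68 ± 0.53 FPKM, on 52 to 77 counts per library, and its standard error of 0.15 left only large changes detectable (log2 fold change −0.02, adjusted p = 0.938). The import receptors themselves did not pass. Pex5, the receptor for the common C-terminal import signal, had a log2 fold change of −0.0041 (SE 0.03, edgeR adjusted p = 0.931), and was called higher without TMM (0.07, adjusted p = 0.0422) and on the log2(TPM + 1) scale (0.10, adjusted p = 0.0163). Pex7, the receptor for the N-terminal signal that thiolase and Phyh carry, had 35.5 ± 1.34 and 39.8 ± 1.62 FPKM, with a log2 fold change of 0.09 (SE 0.04, edgeR adjusted p = 0.0661). Pex7 was called higher without TMM (0.17, adjusted p = 0.000558), in the limma fits, without sedentary replicate 2 (0.12, adjusted p = 0.0334) and without exercise replicate 3 (0.11, adjusted p = 0.0431). Pex6 and its membrane anchor Pex26, which recycle the receptors, had log2 fold changes of −0.05 (adjusted p = 0.342) and −0.04 (adjusted p = 0.596).

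Of the 3 peroxins that insert membrane proteins, 1 fell. Pex16 (gene ID 18633, chromosome 2, 92374676 to 92381220), the most abundant of the 13 peroxins, was at 59.0, 57.4 and 53.4 FPKM in the sedentary and 55.9, 50.7 and 52.1 FPKM in the exercise libraries. The groups overlapped on this scale, while by TMM-scaled counts the log2 fold change of Pex16 was −0.17 (SE 0.04, edgeR adjusted p = 0.00083). The call ended without TMM (−0.09, adjusted p = 0.0648) and with limma on log2(FPKM + 1) (−0.10, adjusted p = 0.132). Pex3, the membrane docking factor, and Pex19, the chaperone that it binds, had log2 fold changes of −0.02 (SE 0.06, adjusted p = 0.849) and 0.01 (SE 0.03, adjusted p = 0.782). Pex19 was called higher without TMM (0.09, adjusted p = 0.0227) and on the log2(TPM + 1) scale (0.12, adjusted p = 0.0159).

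The summed FPKM of each class depends on the scaling between libraries, while the ratio of the sums within each library avoids it. Summed over members, the oxidation and transport genes came to 6926 ± 31.8 FPKM in the sedentary group against 8088 ± 41.8 with exercise (SD, n = 3), and the peroxins at 349 ± 5.99 and 368 ± 3.92 FPKM. Scp2, Phyh and Cat together held most of the first sum, at 24.9%, 19.7% and 18.8% of it in sedentary libraries. The difference of 1161 FPKM came to 26.2% from Acaa1b, 23.9% from Phyh, 14.0% from Cat and 9.07% from Slc27a2. The ratio of the sums was 19.4, 19.9 and 20.3 in the sedentary and 21.8, 22.3 and 21.9 in the exercise libraries, 10.7% higher on average.

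With every gene weighted alike, the mean log2 FPKM of the oxidation genes exceeded that of the peroxins by 2.72, 2.74 and 2.74 in the sedentary and by 2.84, 2.83 and 2.83 in the exercise libraries. The difference between the groups was 0.10, and it was 0.04 without Acaa1b and Ehhadh, so these genes carried more of it than the other 17 oxidation genes. No test was made of these summed values, because the members were chosen with earlier results of these data known.

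**Figure D3:**
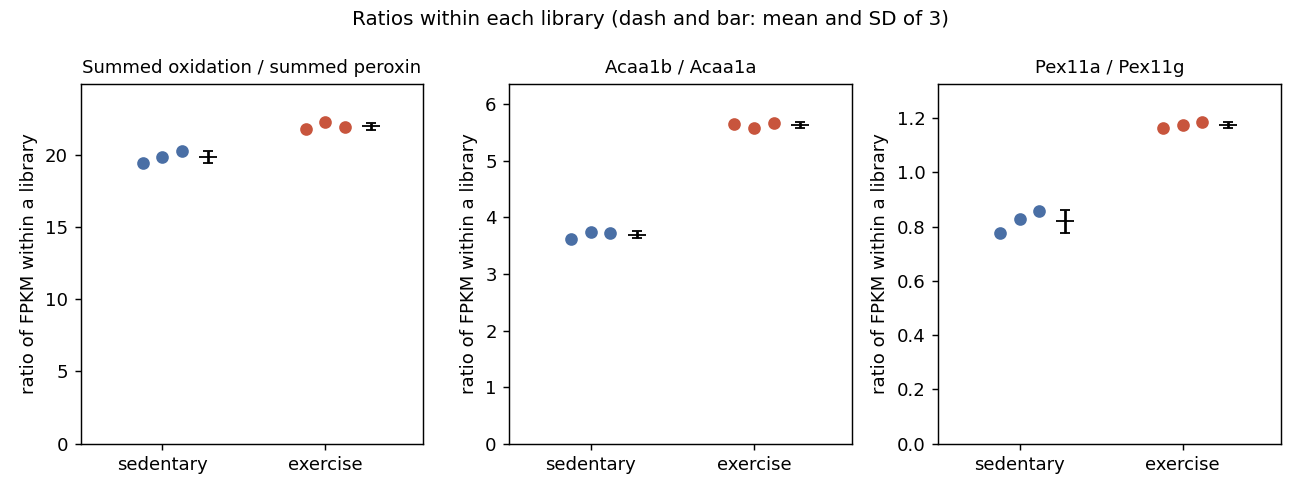
Ratios of FPKM within each library, on axes that start at 0, with the 3 libraries of a group as points and their mean and SD beside them. The ratio of the summed oxidation genes to the summed peroxins lies at 19.4 to 20.3 in sedentary and 21.8 to 22.3 in exercise libraries, and the ratios of Acaa1b to Acaa1a and of Pex11a to Pex11g are also higher in all 3 exercise libraries.

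Other genes of peroxisomal proteins, listed from general knowledge of the organelle, moved both ways. Of 46 tested, 14 rose and 11 fell around a median of −0.0072 on the log2 scale, beside 38.1% called among all genes. Without TMM 20 were higher and 9 lower, with limma on log2(FPKM + 1) 19 and 8, and on log2(TPM + 1) 24 and 8. Of the 6 genes with the smallest p, 3 rose. Crat, which forms carnitine esters of short acyl groups, had a log2 fold change of 0.58 (SE 0.05, edgeR adjusted p = 2.23e-13), Ephx2, a soluble epoxide hydrolase, 0.27 (SE 0.02, adjusted p = 1.06e-13) and Uox, the urate oxidase, 0.21 (SE 0.02, adjusted p = 4.27e-13). Nudt7, a hydrolase that splits peroxisomal CoA, fell by 0.41 on the log2 scale (SE 0.02, adjusted p = 1.18e-21). Mvk and Idi1, enzymes of isoprenoid and cholesterol synthesis that are assigned to peroxisomes in part, fell by 0.91 (SE 0.06, adjusted p = 5.4e-18) and 0.58 (SE 0.03, adjusted p = 1.67e-23).

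Mitochondrial beta-oxidation, the parallel pathway for chains of common length, had 14 of 17 genes higher and 1 lower (Cpt1a, the carnitine acyltransferase of entry, at −0.14), around a median of 0.14, beside 19.1% of all genes higher and 19% lower. The call of Cpt1a ended with limma on log2(FPKM + 1) (−0.07, adjusted p = 0.122). Its changes were more even than those of the peroxisomal genes, between −0.14 and 0.28. The 6 with the smallest p were Acadm, Slc25a20, Acaa2, Acadl, Hadhb and Eci1, with log2 fold changes of 0.25, 0.28, 0.19, 0.24, 0.19 and 0.22. None of the 17 reached the log2 fold change of Acaa1b or Ehhadh, and none was called against a 1.2-fold change by edgeR, nor had an unadjusted p under 0.05 in that test. The difference between the pathways was not tested.

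**Figure D4:**
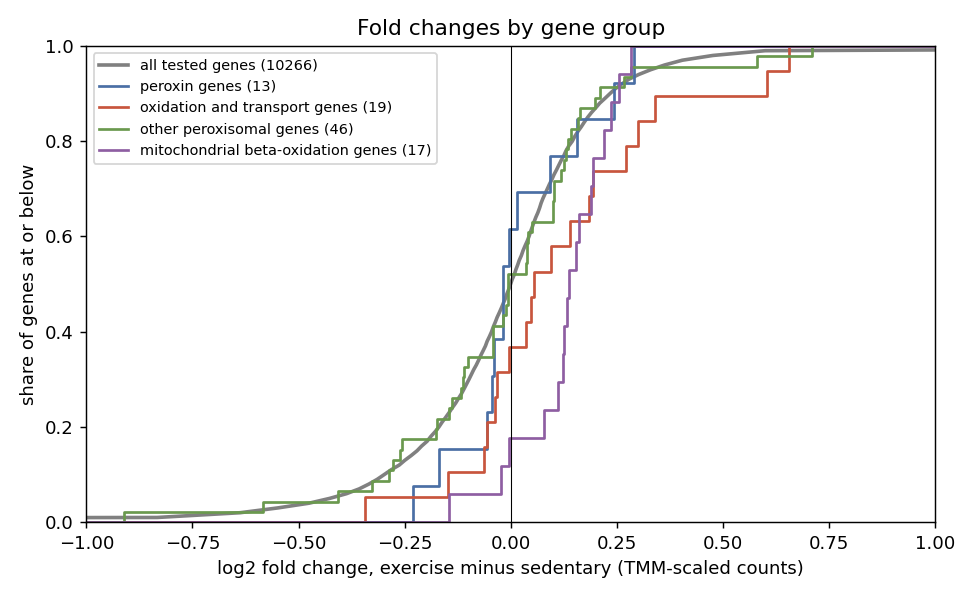
Cumulative share of genes by log2 fold change, exercise minus sedentary, for all tested genes in grey and 4 gene groups as steps. The peroxins and the other peroxisomal genes, with medians of −0.02 and −0.0072, run near the curve of all genes, and the oxidation genes at 0.05 and the mitochondrial beta-oxidation genes at 0.14 run to the right of it.

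Of 10 regulators of these pathways 1 rose and 4 fell on the TMM scale, beside 38.1% of all genes called. This balance turned with the scaling: without TMM 3 were higher and 2 lower, with limma on log2(FPKM + 1) 2 and 1, and on log2(TPM + 1) 3 and none. The mRNA of PPAR-alpha itself, Ppara, was at 36.3 ± 0.309 and 39.4 ± 0.746 FPKM (SD, n = 3), with a log2 fold change of 0.02 (SE 0.03, edgeR adjusted p = 0.587). Ppara was called higher without TMM (0.10, adjusted p = 0.00142) and with limma on log2(FPKM + 1) (0.11, adjusted p = 0.0149). Rxra, which encodes its partner on DNA, fell by 0.14 on the log2 scale (SE 0.02, edgeR adjusted p = 1.18e-06), a call that ended with limma on log2(FPKM + 1) (−0.07, adjusted p = 0.0502). Hnf4a, a hepatocyte nuclear receptor, had a log2 fold change of 0.27 (SE 0.02, edgeR adjusted p = 2.55e-15). Ppard, Pparg and Esrra fell by 0.34, 0.28 and 0.22 on the log2 scale (adjusted p = 0.0119, 0.0182 and 0.00294). The call of Pparg ended without TMM (adjusted p = 0.0806), by DESeq2 (0.117) and when sedentary replicate 2 (0.0532) or 3 (0.0634) or exercise replicate 2 (0.0758) or 3 (0.0659) was left out. That of Ppard ended by DESeq2 (adjusted p = 0.0929) and without sedentary replicate 3 or exercise replicate 2 (0.0543 and 0.068), and that of Esrra without TMM (adjusted p = 0.0533). The coactivators Ppargc1a (0.09, adjusted p = 0.559) and Ppargc1b (0.17, adjusted p = 0.104) did not pass, although Ppargc1b was called higher without TMM (0.25, adjusted p = 0.0127) and without exercise replicate 1 (0.25, adjusted p = 0.0232), nor did Rxrb (0.03, adjusted p = 0.701) and Nr1h4 (−0.04, adjusted p = 0.357). Without sedentary replicate 3, without exercise replicate 2 and by DESeq2, 1 regulator was called higher and 2 lower.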

How the data were processed

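RNA was measured in 6 mouse liver libraries, 3 exercise and 3 sedentary. Per the labels' protocols, the mice were perfused with saline, RNA was extracted with TRIzol, paired reads came from a DNBseq instrument, and low-quality, ambiguous and short reads were removed. The submitters' processing notes name cutadapt, featureCounts, MultiQC and the mouse build GRCm38.p6. No aligner, annotation, strand setting or version was given in the sources used here. The deposited table holds estimated counts (1165 genes have counts that are not whole), FPKM values and TPM values made by the authors per gene and library. Their 6 columns of averages were not used.

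Counts were rounded and fitted with edgeR 4.0.16 in R 4.3.3 (TMM, quasi-likelihood F test, two-sided, no covariates) over genes whose FPKM averaged 1 or more. Standard errors were derived as |log2 fold change| / sqrt(F). Alternatives used DESeq2 1.42.0 and limma 3.58.1, other scalings, filters, pseudocounts of 1 and 0.1 and left-out libraries. The fit was tested on simulated data. The design allowed for a table with FPKM alone, which was not needed. Columns were matched to samples by their descriptions. Gene IDs and coordinates (counted from 1) follow the RefSeq table of GRCm38.p6, exon overlaps and reading frames GENCODE M21, and alignments were made with Biopython 1.88.

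The members and lists were chosen with earlier results of these data known. All 32 members are named, as are up to 6 genes of the other peroxisomal and mitochondrial lists with the smallest p and all tested regulators. Values in every library are given for called members with the 6 largest changes and for called members that went against most of their class. The library values of Acaa1a, Pex13 and Phyh are given outside this rule, chosen after their values were seen.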

Additional observations from a re-analysis of the deposited data

How the results depend on the processing

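Of the 16 members called, 11 passed in each of the 16 alternatives other than the test against 1.2-fold (Pex11a, Pex13, Abcd3, Slc27a2, Ehhadh, Acaa1b, Eci2, Ech1, Phyh, Hacl1 and Cat), and 5 did not (Pex2, Pex11g, Pex16, Abcd2 and Slc25a17). Of the 16 not called, 9 passed in at least 1 alternative and 7 in none (Pex3, Pex6, Pex10, Pex14, Pex26, Acox3 and Amacr). Against the sign of the value reported, Pex5 passed without TMM (0.07359) and on the log2(TPM + 1) scale (0.1045), Scp2 likewise (0.04136 and 0.07354) and Pecr likewise (0.07377 and 0.1001).

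Of all tested genes 3913 were called, 1961 higher and 1952 lower, 2512 by DESeq2 and 653 against 1.2-fold, and without TMM 3536 were higher and 1203 lower. Against 1.2-fold, edgeR called 0 peroxins, 3 oxidation genes, 5 other peroxisomal genes, 0 mitochondrial beta-oxidation genes and 0 regulators, where the lists at 0 also had 0 genes with an unadjusted p under 0.05. The 15 enzymes alone had 7 called. Of the regulators, 3 were called by DESeq2 and by each of the 3 limma fits, and 3 to 6 with 1 library left out.

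The median log2 fold change of the peroxins, −0.01742, was 0.06024 without TMM, 0.01734 with library totals that leave out the 20 most abundant genes, −0.008686 without a filter, 0.06589 and 0.07095 with limma on FPKM at pseudocounts of 1 and 0.1, 0.09881 with limma on TPM, and −0.02187 to 0.00202 with 1 library left out. That of the oxidation genes, 0.05487, was 0.1326, 0.08966, 0.06361, 0.1278, 0.129 and 0.1624 under the same settings in that order, 0.06848 at a mean of at least 5 FPKM, and 0.04557 to 0.06228 with 1 library left out. In every one of these settings the median of the oxidation genes was above that of the peroxins. The cause of these shifts was not tested.

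Libraries share replicate numbers across the groups in the labels. Deviations of same-numbered libraries had correlations of −0.0264, −0.007 and −0.0135, and 0 of 3 exercise libraries correlated best with their own number. Such values cannot decide whether same-numbered libraries were handled together, because the spread within a group was small (1.84%). With the replicate number as a block, 5 peroxins, 11 oxidation genes, 25 other peroxisomal genes, 15 mitochondrial genes and 5 regulators were called, as without it. Depth limits Pex10 and Abcd2 most, with 52 to 77 and 100.0 to 138 counts per library.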
